A study of Mus musculus with 3 samples.

Results

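Pancreatic acinar cells were described among live CD45+ cells sorted from mouse pancreas and profiled by droplet single-cell RNA sequencing. The cells were chosen by their transcripts: a cell barcode was kept with at least 500 UMIs (unique molecular identifiers, each standing for 1 captured RNA molecule) and at most 30% of its UMIs in mitochondrially encoded genes, and it was taken as acinar when 8 digestive enzyme genes (Ctrb1, Cela2a, Cela3b, Cpa1, Cel, Pnlip, Clps and Prss2) held at least 10% of its UMIs and Cd79a, Cd3e and Csf1r had none. By this rule 54 of 14988 kept barcodes (0.360%) were acinar cells, 17 of 5446 from PBS, 23 of 5118 from 3-day WGP and 14 of 4424 from 7-day WGP. Their 162365 UMIs were 40808, 94665 and 26892 in the same order, in which all triplets of values below are given. They were analysed as cells carried past the CD45 sort, gene by gene and library by library.

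Wild-type C57BL/6J mice had received an intraperitoneal injection of PBS, or of WGP, a particulate beta-glucan from yeast cell wall, and the pancreas was taken 3 or 7 days after WGP. The mice were young adults of both sexes by the study's methods, while the labels gave neither the sex nor the number of mice behind a library. Each group was 1 library, so no difference between groups could be tested against the spread between mice, and the intervals below are 95% intervals for counting error only. Both WGP libraries were set against the same PBS library, so the 3-day and 7-day ratios are not independent of each other.

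Acinar cells make most of the mass of the exocrine pancreas. They synthesise digestive enzymes on an extensive rough endoplasmic reticulum (ER), store them as inactive zymogens in granules, and release them into the ducts when cholecystokinin or acetylcholine raises calcium. A few genes therefore fill most of the messenger RNA of an acinar cell. The Reg family of small secreted C-type lectins belongs to the same secretory output, and several of its members are known to be induced in acinar cells during pancreatitis and other injury. CD45, encoded by Ptprc, is a surface phosphatase of leukocytes that acinar cells do not make.

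The promoters below show the 2 kinds of gene on which the results turn. Ctrb1 and Cela2a stand for the digestive enzymes, and Reg1, Reg2, Reg3b and Reg3g for the Reg family, of which Reg1 is the most abundant member and the others were among those furthest from PBS at 3 days. Each sequence is the 250 bases before the RefSeq transcription start (GRCm38.p6), read 5′ to 3′ on the strand of the gene. In the enzyme promoters capitals mark an E-box (CACCTG) or a TC-box (TGGGAA) on either strand, the paired elements known to be bound by the acinar factor complex PTF1. In the Reg promoters capitals mark a STAT-type palindrome (TTCNNNGAA) or a TATA box (TATAAA) on either strand. No 2 matches overlapped in these promoters.
Ctrb1 (chr8:111691011-111691260, minus strand): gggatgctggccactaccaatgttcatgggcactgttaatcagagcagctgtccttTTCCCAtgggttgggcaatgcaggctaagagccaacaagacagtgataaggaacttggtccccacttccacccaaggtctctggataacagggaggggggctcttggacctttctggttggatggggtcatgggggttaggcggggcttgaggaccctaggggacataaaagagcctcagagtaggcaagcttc
Cela2a (chr4:141826006-141826255, minus strand): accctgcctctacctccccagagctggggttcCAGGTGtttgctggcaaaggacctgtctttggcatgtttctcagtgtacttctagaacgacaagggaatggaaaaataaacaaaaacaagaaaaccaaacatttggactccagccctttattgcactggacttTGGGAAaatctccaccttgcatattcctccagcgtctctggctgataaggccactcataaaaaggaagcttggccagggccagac
Reg1 (chr6:78425733-78425982, plus strand): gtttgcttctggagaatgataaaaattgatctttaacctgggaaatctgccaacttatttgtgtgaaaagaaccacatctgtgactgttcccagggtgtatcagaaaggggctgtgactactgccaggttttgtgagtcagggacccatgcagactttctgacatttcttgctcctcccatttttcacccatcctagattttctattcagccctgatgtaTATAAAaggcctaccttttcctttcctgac
Reg2 (chr6:78404905-78405154, plus strand): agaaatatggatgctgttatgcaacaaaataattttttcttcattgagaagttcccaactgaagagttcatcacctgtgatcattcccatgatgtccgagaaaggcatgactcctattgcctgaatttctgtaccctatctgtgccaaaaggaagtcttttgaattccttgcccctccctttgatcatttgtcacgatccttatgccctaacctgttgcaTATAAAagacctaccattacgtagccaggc
Reg3b (chr6:78370635-78370884, plus strand): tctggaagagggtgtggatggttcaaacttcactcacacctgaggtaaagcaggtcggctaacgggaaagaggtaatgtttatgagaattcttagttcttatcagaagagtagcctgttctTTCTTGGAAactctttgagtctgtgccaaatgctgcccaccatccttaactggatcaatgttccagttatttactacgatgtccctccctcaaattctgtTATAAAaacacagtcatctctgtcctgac
Reg3g (chr6:78468875-78469124, minus strand): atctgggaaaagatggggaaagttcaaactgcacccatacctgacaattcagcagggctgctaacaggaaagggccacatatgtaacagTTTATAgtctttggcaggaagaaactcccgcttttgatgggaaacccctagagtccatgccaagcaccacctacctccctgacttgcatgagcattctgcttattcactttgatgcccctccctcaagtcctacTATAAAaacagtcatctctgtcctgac
The E-box letters were in 17.2% and the TC-box letters in 21.6% of 32851 promoters of the same length, and both were in 3.91%. Among 40 genes of the acinar secretory lists with an entry, 20 held the E-box, 22 the TC-box and 12 both. Of the 6 Reg promoters 4 held the E-box, 5 the TC-box and 3 both, against 4, 6 and 3 of the 7 rule enzymes with an entry. These letters therefore do not set the 2 kinds of gene apart. In the Reg promoters shown they are left in lower case, and Ctrb1 held no E-box. The STAT-type letters, in 7.02% of all promoters, were in 2 of the 6 Reg promoters, those of Reg3b and Reg3d. The TATA-box letters, in 12.4% of all promoters, were in 18 of the 40 and in the promoters of Reg1, Reg2, Reg3b and Reg3g. All 6 Reg genes lay within 98.5 kb of chromosome 6. The promoters of Reg3b and Reg3g shared a run of 20 bases that ended at the start site (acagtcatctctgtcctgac), the longest run common to any 2 of the promoters shown. A letter match describes the sequence and was not tested as a binding site.

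The 3 libraries held 52464690, 56849043 and 48219246 UMIs, and the other kept barcodes had median depths of 5475, 5358 and 7552.5 UMIs. Sex-linked transcripts were not at the same level in the libraries: outside the acinar cells, the female transcript Xist was at 576.5, 123.2 and 285.7 CPM (UMIs of a gene per 1000000 UMIs) and the Y-linked Ddx3y at 33.2, 47.5 and 47.3 CPM. Whether the mix of male and female cells differed was not tested. In the acinar cells Xist had 0 UMIs and Ddx3y 1, too few to tell which mice they came from. Sex therefore cannot be told apart from treatment in the acinar comparisons. No acinar barcode was shared between libraries, against 15 shared among all kept barcodes.

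Most of the barcodes that the rule took stood well apart from the others in enzyme share (see the plot of enzyme share against depth). The lowest enzyme share of an acinar cell was 15.1%, 11.9% and 36.3%, and the highest share of a kept barcode below the limit was 8.95%, 6.55% and 2.55%. Between 5% and 10% lay 6, 3 and 0 kept barcodes, and 50 of the 54 acinar cells were at 30% or more. Between 2% and 5% lay 17, 26 and 1 kept barcodes, so only 7-day WGP had few barcodes below the limit. The other kept barcodes had a median enzyme share of 0. The condition on Cd79a, Cd3e and Csf1r left out 1 PBS barcode with 38.9% enzyme UMIs and 1 3-day WGP barcode with 12.3%.

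**Figure D1:**
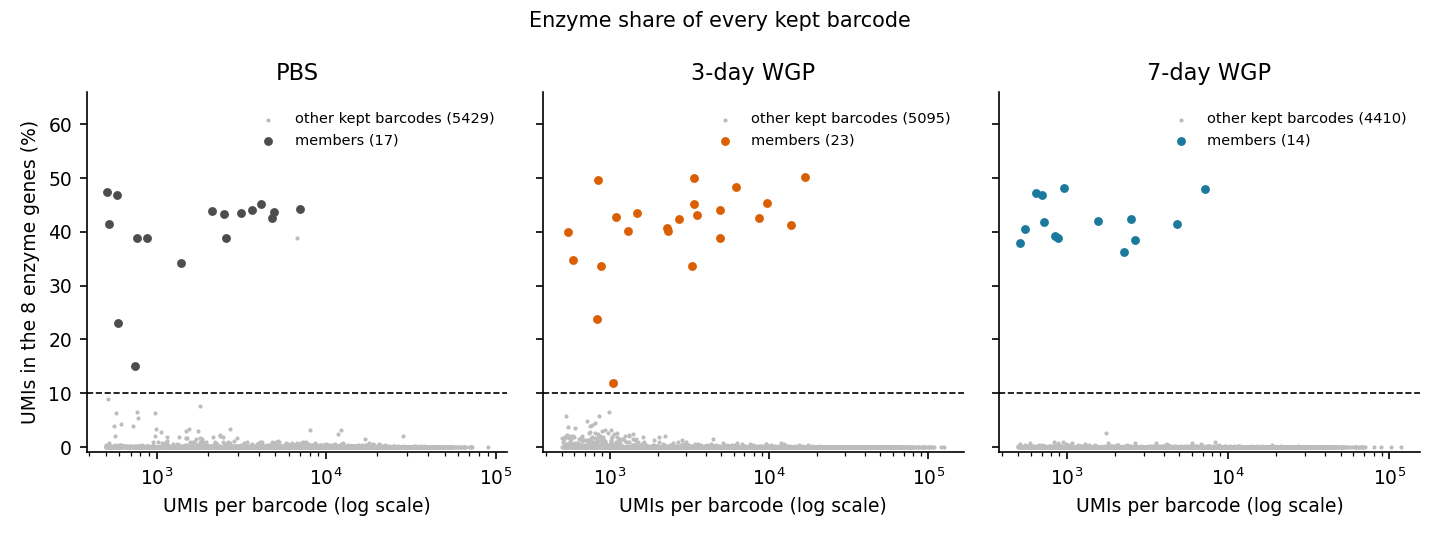
Share of UMIs in the 8 enzyme genes (vertical axis, percent) against UMIs per barcode (horizontal log axis) for every kept barcode of the 3 libraries, with the limit of 10% as a line and acinar cells in colour. The acinar cells sit mostly at 30% or more, and the lowest of them are at 15.1%, 11.9% and 36.3%.

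The 4 marker genes fitted the name and were used by the rule, so their levels are a description. Ctrb1, which encodes chymotrypsinogen B, took 11.9%, 11.3% and 14.4% of the summed acinar UMIs. Cela3b, an elastase gene, took 3.92%, 3.75% and 4.33%. Cpa1, carboxypeptidase A1, took 2.54%, 2.49% and 2.94%, and Pnlip, pancreatic lipase, 4.59%, 4.72% and 4.998%. Every acinar cell of each library had UMIs of all 4 genes. Of 11 further acinar markers that the rule did not use, 9 had 46 UMIs or more over the acinar cells, among them Cela1 with 2035, 5515 and 1400 UMIs and Cpb1 with 1115, 2832 and 830, while the transcription factor genes Rbpjl and Bhlha15 had 5 and 2 UMIs in all.

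Transcripts of other cell types were few, apart from those of plasma cells. The plasma cell list (Igkc, Ighm, Jchain and 2 further genes) had 29, 586 and 7 UMIs, or 711, 6190 and 260 CPM, against 50793, 84771 and 28662 CPM in free RNA, taken from barcodes of at most 100 UMIs. It had a UMI in 10, 17 and 2 acinar cells and reached 17.4% of the UMIs of 1 3-day WGP cell, the one with the lowest enzyme share of that library. Over all 54 cells, all 8 endothelial markers and all 5 dendritic cell markers were at 0, as were Epcam and Krt19, and the islet list had 1 UMI, of Ins2. The fibroblast list had 0, 2 and 0 UMIs, the T cell list 0, 1 and 0, the B cell list 1, 4 and 0, and the monocyte or macrophage list 12, 10 and 10. The rule held Cd3e, Cd79a and Csf1r at 0, and they belong to the T cell, B cell and macrophage lists. Low counts of these lists are therefore in part set by the rule. Krt18, a simple epithelial keratin that acinar cells express, had 3, 8 and 3 UMIs, and Krt8, its partner, 0, 5 and 4. The duct list consisted almost wholly of Clu, the secreted chaperone clusterin, with 19, 27 and 12 UMIs.

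The share of acinar cells did not differ between libraries beyond counting error. They made 0.312% of the PBS barcodes kept (95% exact Clopper-Pearson interval 0.182 to 0.499%), 0.449% of those kept at 3 days (0.285 to 0.674%) and 0.317% at 7 days (0.173 to 0.530%). The log2 ratio of the share to PBS was 0.53 (-0.38 to 1.43) at 3 days and 0.02 (-0.999 to 1.04) at 7 days, so neither interval left out 0. The upper end of each interval lay above a log2 ratio of 1, so a 2-fold higher share was not left out at either time. By summed UMIs, acinar cells held 0.0880%, 0.182% and 0.0641% of the UMIs of kept barcodes. Of the other cells that a CD45 sort should remove, endothelial barcodes numbered 40, 5 and 8, with log2 ratios of -2.91 (-4.25 to -1.57) and -2.02 (-3.12 to -0.93), and fibroblast barcodes 35, 38 and 21, with 0.21 (-0.45 to 0.87) and -0.44 (-1.22 to 0.34). How many acinar cells entered each sort was not measured, and the share among sorted barcodes says nothing of their number in the tissue.

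Ptprc, the CD45 gene, was nearly unseen. Of the 54 acinar cells 1 had a Ptprc UMI (1.85%, exact 95% interval 0.0469 to 9.89%), a 3-day WGP cell with a single UMI. With 0 of 17 PBS cells and 0 of 14 7-day WGP cells, a limit of 3 counts allows shares of up to 17.7% and 21.4%, and the exact intervals reach 19.5% and 23.2%. These are limits on cells with a UMI at these depths, not on cells that express the gene. Among the other kept barcodes, which were deeper, 87.2%, 85.0% and 92.5% had a Ptprc UMI. After every barcode had been thinned to 500 UMIs, 0 of the 54 acinar cells and 32.8%, 29.0% and 40.8% of the other barcodes had one. Most UMIs of most acinar cells were secretory, so thinning did not make the UMIs outside the secretory lists equal in number. Endothelial and fibroblast barcodes had one in 3 of 53 and 7 of 94 before thinning.

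The summed leukocyte list (Ptprc and 9 other pan-leukocyte genes) stood at 147, 285 and 37.2 CPM in acinar cells, from 6, 27 and 1 UMIs. It stood at 7065 CPM in the other kept barcodes of PBS and at 4527 CPM in free RNA of PBS. As CPM of the UMIs outside the secretory lists, it stood at 793.9, 1725.6 and 234.1 in acinar cells. The other kept barcodes of PBS were at 7071.1 on that scale. A leukocyte-list UMI was present in 3 of 17, 7 of 23 and 1 of 14 acinar cells. Igkc, the kappa light chain of B and plasma cells, had 16, 393 and 4 UMIs, and 5 of the 23 3-day WGP cells with more than 30 UMIs each held 95.4% of the 393. Without those 5 cells the leukocyte list of 3-day WGP was at 45.9 CPM. In free RNA Igkc was at 31769, 53928 and 17508 CPM, highest in 3-day WGP as well, and the part of free RNA or of adhering cells in these 5 cells was not tested.

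The acinar cells were shallow and held few different genes. Their median depth was 2122, 2704 and 928 UMIs, with ranges of 508 to 6998, 547 to 16874 and 511 to 7189, and 7, 5 and 8 cells had under 1000 UMIs. The median cell of 7-day WGP was thus shallower than that of the other libraries. Genes detected had medians of 229, 272 and 137.5, and genes per 100 UMIs medians of 13.5, 11.0 and 13.5, against 46.4, 55.0 and 48.3 in endothelial and 29.4, 38.1 and 31.9 in fibroblast barcodes. In the summed acinar UMIs 1857, 3137 and 1422 genes were seen.

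Mitochondrial and nuclear transcripts took small shares of all their UMIs (see the plot of depth, genes and mitochondrial share). The median mitochondrial share of an acinar cell was 0.559%, 0.153% and 0.337%, against 5.15%, 4.05% and 4.07% in the other kept barcodes. It was under 1% in 39 of the 54 cells, 11 of 17, 18 of 23 and 10 of 14, whereas 4.02%, 9.28% and 5.47% of the other kept barcodes were under 1%. At the other end, 5, 3 and 0 acinar cells were at 4% or more. Malat1, a long noncoding RNA retained in the nucleus, had no UMI in 30 of the 54 cells, and its summed level was 12, 33 and 6 UMIs. Ribosomal protein genes had median shares of 4.69%, 4.40% and 4.05%, against 25.7%, 22.3% and 17.4% in the other kept barcodes. These are shares of all UMIs, most of which were secretory in acinar cells. Of the UMIs outside the secretory lists, ribosomal protein genes had median shares of 27.3%, 29.2% and 24.3%. Mitochondrial genes had medians of 3.24%, 0.725% and 2.28% there. Summed over the cells they held 11.3%, 6.32% and 4.47% of those UMIs, against 4.68%, 3.93% and 4.25% in the other kept barcodes. Whether these barcodes held whole cells was not tested.

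**Figure D2:**
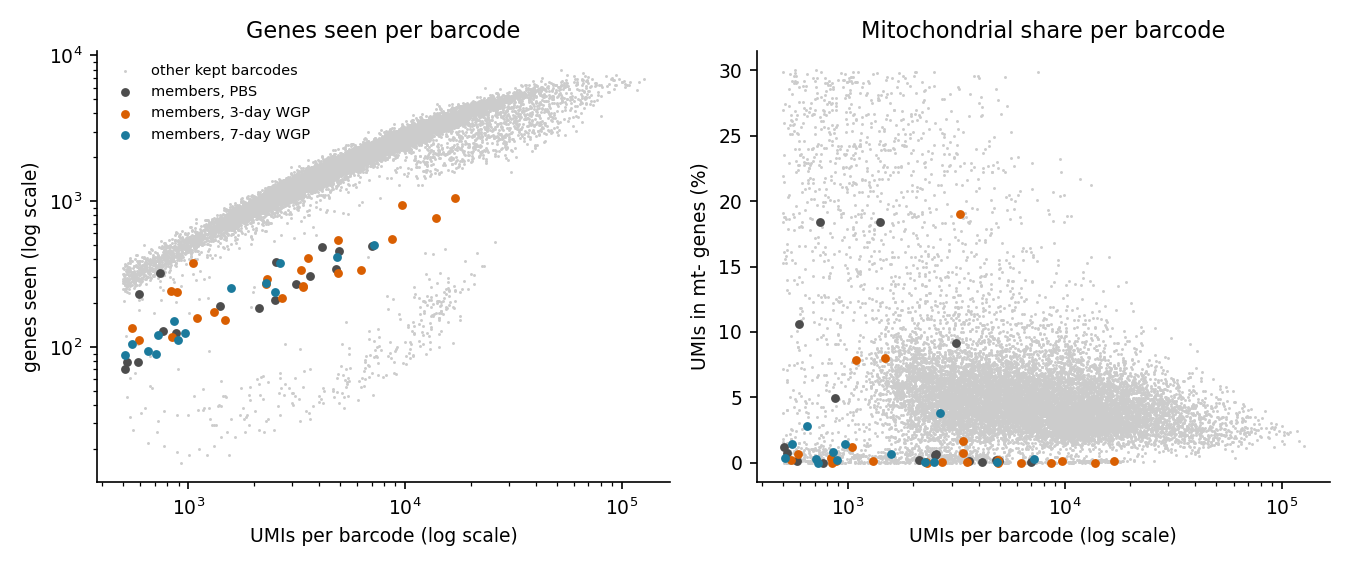
Genes detected and mitochondrial share (percent) against UMIs per barcode on a log axis, for acinar cells in the colour of their library and other kept barcodes in grey. At a given depth the acinar cells hold fewer genes than most other barcodes, and 39 of the 54 have a mitochondrial share under 1%.

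The secretory programme filled the RNA of these cells in each of the 3 libraries (see the plot of composition). The 48 genes of the 6 acinar secretory lists held 81.5%, 83.5% and 84.1% of the summed UMIs. The 8 enzymes of the rule held 42.2%, 43.7% and 42.9%, the other proteases and their inhibitors 26.3%, 26.3% and 26.4%, the other lipases 1.76%, 1.80% and 2.40%, and the amylases with ribonuclease 3.30%, 2.86% and 2.80%. Zymogen granule and other secreted proteins held 5.21%, 4.95% and 5.26%. Of these 6 lists the Reg genes differed most relative to PBS, at 2.68%, 3.90% and 4.44%. Of the rest, ribosomal protein genes held 5.25%, 4.36% and 4.17% and mitochondrial genes 2.10%, 1.05% and 0.710%. Cell by cell, the secretory share was 70% or more in 47 of the 54 and under 50% in 4, of which 2 were PBS and 2 3-day WGP cells.

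**Figure D3:**
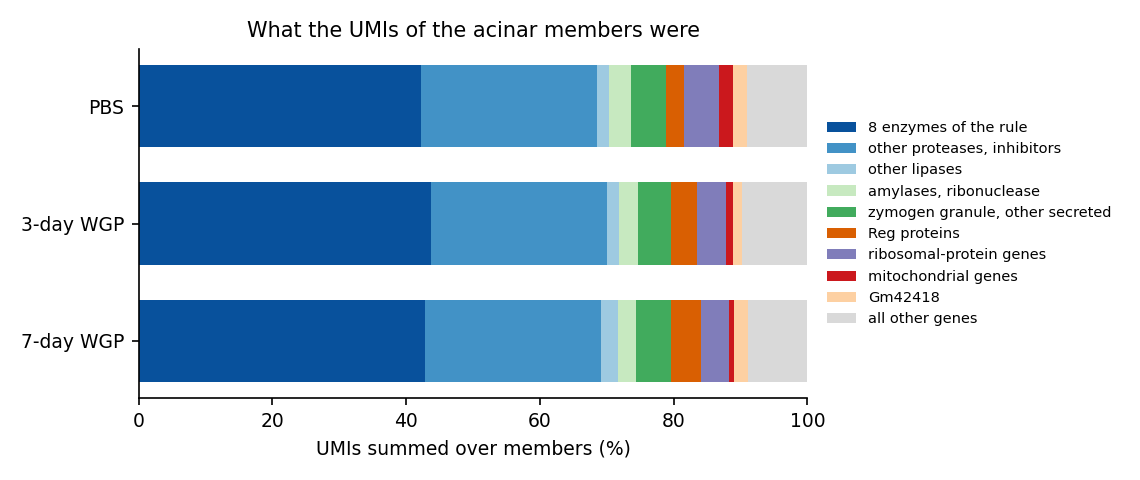
Share of the summed acinar UMIs (percent, stacked bars from 0) by gene list in PBS, 3-day WGP and 7-day WGP. Secretory genes fill 81.5%, 83.5% and 84.1%, and the band of Reg genes widens from 2.68% to 3.90% and 4.44%.

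Genes that marked the acinar cells against the other kept barcodes were nearly all secretory. Of 141 genes with at least 50 acinar UMIs, 42 (29.8%) were at least 4-fold higher by CPM in acinar cells in each of the 3 libraries. They comprised 37 of the 37 secretory genes tested, 8 of them genes of the rule, and 5 others. Since the rule chose the cells on this contrast, the count is a description. The 5 others were Nupr1, a small stress-induced nuclear protein with 206 UMIs, Mt1, a metallothionein that binds zinc, with 193, Lars2, the mitochondrial leucyl-tRNA synthetase, with 190, the uncharacterised 1810028F09Rik with 66, and Clu with 58. Outside every list, Lars2 was 10.5-, 4.27- and 10.7-fold higher than in the other barcodes, Ggh, a lysosomal gamma-glutamyl hydrolase, 5.47-, 3.29- and 3.05-fold, and Dap 4.05-, 2.66- and 5.23-fold. Reep5, a protein that shapes ER tubules, was 2.35-, 1.42- and 1.41-fold higher and Rps27l 2.05-, 1.32- and 1.98-fold, while Serp1, Rpl41, Gabarap and Rpl38 were lower than in the other barcodes in at least 1 library. Gm42418, which overlaps ribosomal RNA repeats, was 2.91-, 2.13- and 2.41-fold higher in acinar cells, and stood at 21025 CPM in the acinar cells of PBS against 102964 CPM in free RNA.

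Between libraries, a gene was compared when the 2 libraries together held at least 20 acinar UMIs of it and the higher one at least 100 CPM. Of 207 genes compared at 3 days, 20 (9.66%) were at least 2-fold higher and 13 (6.28%) at least 2-fold lower than in PBS, with a median log2 ratio of -0.13. Of 149 genes compared at 7 days, 8 (5.37%) were at least 2-fold higher and 26 (17.4%) at least 2-fold lower, with a median of -0.21. These counts describe 3 libraries and carry no test. Scaled to the UMIs outside the secretory lists, which raised the medians to 0.04 and 0.02, the counts were 25 higher and 4 lower at 3 days and 11 higher and 19 lower at 7 days.

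Of the 6 secretory lists, the Reg genes had the highest median log2 ratio to PBS at both times. At 3 days 6 of the 6 could be compared, of which 4 (Reg2, Reg3a, Reg3b and Reg3g) were at least 2-fold higher, beside 9.66% of all genes compared, with a median of 2.21 beside -0.13. At 7 days 4 could be compared, of which 2 (Reg2 and Reg3b) were at least 2-fold higher, beside 5.37% of all genes, with a median of 1.74 beside -0.21. These counts and medians are descriptions, because Reg3a, Reg3b, Reg3d and Reg3g did not reach both limits in PBS alone, and those that were high passed through the WGP library in which they were high. Reg1 and Reg2 reached the limits in PBS. Of the 107 genes that did so, 2 were at least 2-fold higher at 3 days, Reg2 and Mt1, and 4 at 7 days, Reg2, Gp2, Pdia2 and Pnliprp2. Outside the secretory lists, the plasma cell list had a higher 3-day median, of 3.07 over 3 genes that entered through the 3-day WGP library.

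Reg2 (chromosome 6, 78395623 to 78408106, plus strand, mm10) encodes a secreted lectin of the pancreas. The promoter shown above ends at a RefSeq start inside this span, and those of Reg1 and Reg3b end inside theirs. Gene spans and promoters thus rest on different start sites. Reg2 had 22, 376 and 109 UMIs, which made 539, 3972 and 4053 CPM of the acinar sums. It was low in PBS and about equally high at both times after WGP, with log2 ratios of 2.88 (2.26 to 3.57) at 3 days and 2.91 (2.24 to 3.64) at 7 days. By cell, its median share of UMIs was 0.0404%, 0.153% and 0.157%, and its highest 0.261%, 1.05% and 0.907%. The groups overlapped at the low end: at 3 days 10 of 23 cells lay above the highest PBS cell, and at 7 days 6 of 14. The 2 cells richest in it held 58.5% of the 3-day and 65.1% of the 7-day UMIs.

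Reg3b (chromosome 6, 78370657 to 78373466, plus strand), also known as pancreatitis-associated protein 1, had 13, 383 and 58 UMIs, or 319, 4046 and 2157 CPM. Its log2 ratios were 3.67 (2.88 to 4.59) at 3 days and 2.76 (1.87 to 3.75) at 7 days. The level was highest at 3 days, and 7-day WGP lay between the other libraries. Its median share by cell was 0, 0.262% and 0.0606% of UMIs, and 19 of the 23 cells at 3 days lay above the highest PBS cell, at 0.0833%, as did 7 of the 14 at 7 days. No other Reg gene separated the 3-day cells from the PBS cells as far.

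Reg3g (chromosome 6, 78466269 to 78468872, minus strand), a bactericidal lectin known best from gut epithelium, had 3, 106 and 5 UMIs, or 73.5, 1120 and 186 CPM. Its log2 ratio at 3 days was 3.93 with a wide interval of 2.34 to 6.23, as PBS held 3 UMIs. At 7 days too few UMIs were present for a comparison. In 3-day WGP 13 of 23 cells had a UMI, and 10 lay above the highest PBS cell, at 0.0786%. No 7-day WGP cell lay above it.

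The other Reg genes differed less. Reg1 (chromosome 6, 78422711 to 78428667, plus strand), the most abundant of the family, encodes lithostathine, which is secreted into pancreatic juice. It had 1039, 2782 and 1006 UMIs, or 25461, 29388 and 37409 CPM, and its log2 ratios were 0.21 (0.10 to 0.31) and 0.56 (0.43 to 0.68), both under 2-fold. Reg3a had 4, 27 and 4 UMIs, with a log2 ratio at 3 days of 1.54 (0.02 to 3.52). Reg3d had 11, 21 and 12 UMIs, with log2 ratios of -0.28 and 0.73.

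At equal depth Reg2 and Reg3b were detected in more cells at 3 days than in PBS. With each cell thinned to 500 UMIs, a Reg2 UMI remained in 2 of 17 PBS cells (11.8%), 15 of the 23 cells at 3 days (65.2%) and 8 of the 14 at 7 days (57.1%), beside 10, 20 and 10 cells unthinned. A Reg3b UMI remained in 0, 15 (65.2%) and 5 (35.7%), beside 5, 21 and 8 unthinned, and a Reg3g UMI in 1, 7 (30.4%) and 1. In the other kept barcodes thinned to the same depth, Reg2 was present in 0.0921%, 0.236% and 0.0454% and Reg3b in 0.0553%, 0.137% and 0.0227%. The exact 95% intervals of the acinar shares were 1.46 to 36.4%, 42.7 to 83.6% and 28.9 to 82.3% for Reg2, and 0 to 19.5%, 42.7 to 83.6% and 12.8 to 64.9% for Reg3b. For both genes the 3-day interval lay above that of PBS, while the 7-day interval overlapped it. The cells of a library are not replicates of its group, so this describes the libraries and is no test between groups. Reg3b had also entered the comparison through the WGP libraries.

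**Figure D4:**
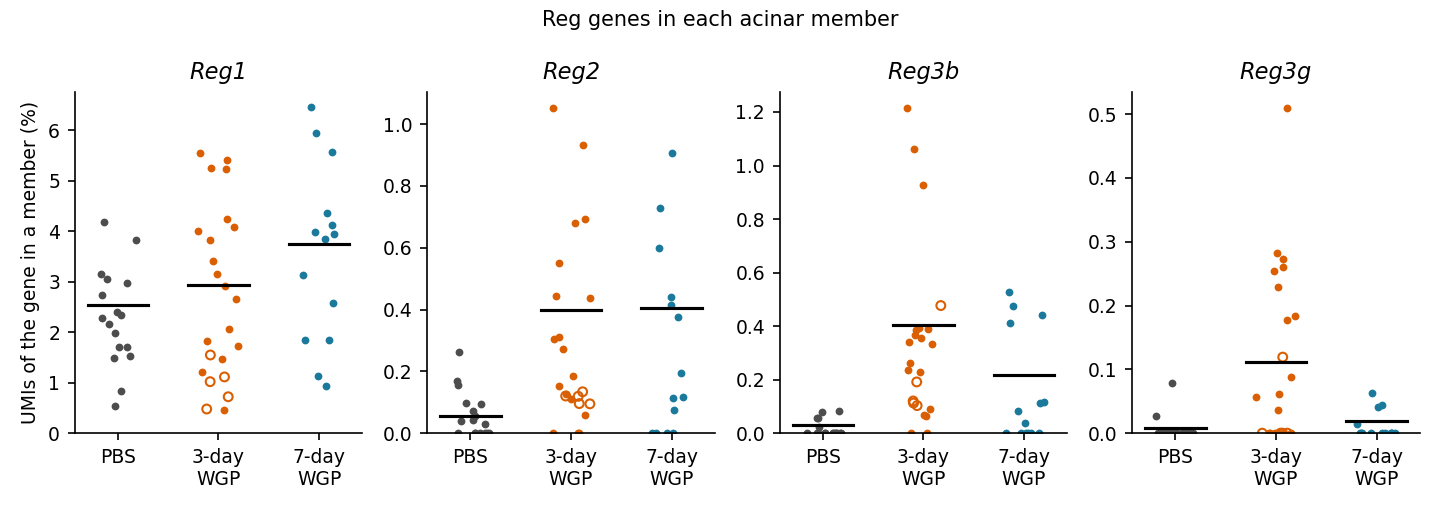
Share of UMIs (percent) in Reg1, Reg2, Reg3b and Reg3g for each acinar cell by library, with the share in the summed UMIs as a black line and the 5 3-day WGP cells of over 30 Igkc UMIs as open circles. For Reg3b, 19 of 23 cells at 3 days and 7 of 14 at 7 days sit above the highest PBS cell, at 0.0833%, while the Reg1 clouds overlap.

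The Reg2 and Reg3b ratios were recomputed without single cells. With any 1 cell of either library left out, the log2 ratio of Reg2 lay between 2.50 and 3.102 at 3 days and between 2.45 and 3.107 at 7 days, and that of Reg3b between 3.31 and 4.02 and between 2.32 and 3.11. The lowest value came each time from leaving out the WGP cell richest in the gene. That cell held 129 of the 376 Reg2 and 128 of the 383 Reg3b UMIs at 3 days, and 44 of the 109 and 23 of the 58 at 7 days. Without the 2 WGP cells richest in the gene, Reg2 was at 2.003 and 2.25 and Reg3b at 2.83 and 1.87, still above 2-fold. Without the 5 cells of over 30 Igkc UMIs, the 3-day ratios were 3.29 for Reg2 and 4.06 for Reg3b. Without every cell with an Igkc UMI, which left out 7, 12 and 1 cells, Reg2 was at 3.48 and 2.85 and Reg3b at 4.71 and 3.37, the latter against 5 UMIs left in PBS. With each cell weighted the same, Reg2 was at 2.32 and 2.25 and Reg3b at 4.26 and 3.17. The Reg genes had no 31-base stretch of their last 500 bases in common with another gene's end.

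The 8 enzymes of the rule varied less between libraries than the Reg genes, and 0 of 8 reached 2-fold in either comparison, with median log2 ratios of 0.01 and 0.13. Ctrb1 had log2 ratios of -0.08 and 0.28, Cela3b -0.06 and 0.14, Cpa1 -0.03 and 0.21, and Pnlip 0.04 and 0.12. Cel, the bile salt-activated lipase, had 0.44 and 0.67, and Prss2, an anionic trypsinogen, 0.29 and 0.11.

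Clps and Cela2a stood apart among them. Clps, which encodes the colipase that anchors pancreatic lipase to fat, was at 91869, 66656 and 49532 CPM, and its log2 ratios were -0.46 (-0.52 to -0.40) and -0.89 (-0.98 to -0.80). By cell, its median share was 6.41%, 6.45% and 4.68%, and with each cell weighted the same the log2 ratios were 0.05 and -0.49, so the 3-day difference was not present in that weighting. Cela2a, an elastase gene, was at 36169, 67153 and 39231 CPM, and its log2 ratios were 0.89 and 0.12. A single 3-day WGP cell held 37.0% of that library's Cela2a UMIs, and without the 5 cells of over 30 Igkc UMIs the 3-day ratio was 0.21. In free RNA, Cela2a was also counted per UMI of the enzymes of the rule, of which it is one. On that measure it stood at 0.999-fold and 1.29-fold the PBS level, against 1.80-fold and 1.07-fold in acinar cells. By CPM, Cela2a was at 787.1, 420.7 and 898.0 in free RNA, so its 3-day level there was below PBS on that scale. Of the last 500 bases of Cela2a, 59.6% of 31-base stretches also occur in Ctrc, which overlaps it, and reads of the pair may not be told apart.

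The other proteases followed the enzymes of the rule. Of the 14 proteases and inhibitors listed, 12 could be compared: 0 reached 2-fold at 3 days and 1 was at least 2-fold lower at 7 days, with median log2 ratios of -0.07 and 0.02. Cela1, the pancreatic elastase 1 gene, had log2 ratios of 0.22 and 0.06, Cpb1, carboxypeptidase B1, 0.13 and 0.18, Ctrl, chymotrypsin-like protease, 0.33 and 0.35, and Spink1, the trypsin inhibitor of the granule, -0.51 and -0.27. The gene past the fold was Ctrc, chymotrypsin C, with 17, 26 and 3 UMIs and a 7-day log2 ratio of -1.90 (-4.31 to -0.11). Together the 8 trypsinogen genes held 20.8%, 20.5% and 20.1% of acinar UMIs. Single trypsinogens are uncertain, as 80.2% of the end stretches of Try4, 62.1% of Try5, 69.4% of Try10 and 22.1% of Prss2 occur in another gene.

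Lipases, amylases and granule proteins showed a few single genes past 2-fold (see the plot of log2 ratios of secretory genes). Pnliprp2, a pancreatic lipase-related protein, had 53, 158 and 78 UMIs and log2 ratios of 0.36 and 1.16 (0.64 to 1.69 at 7 days), while Pnliprp1 had 0.04 and 0.58 and the phospholipase Pla2g1b -0.10 and -0.22. Rnase1, pancreatic ribonuclease, had -0.26 and -0.24. Amylase counts were low: Amy2a5 had 25, 93 and 14 UMIs, and Amy2a2 had 4, 38 and 2, of which 57.9% of the 3-day UMIs lay in 1 cell. The ends of Amy2a1 to Amy2a4 are shared in full with another amylase gene, so the copies may not be told apart.

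Of the 10 granule and other secreted genes, 9 could be compared, and 3 of them were at least 2-fold higher at 7 days, beside 5.37% of all genes, with a list median of 0.82 beside -0.21. Of the 3, Serpini2 did not reach the limits in PBS alone. Gp2, the main membrane protein of zymogen granules, had 62, 140 and 97 UMIs, or 1519, 1479 and 3607 CPM, and its log2 ratios were -0.04 and 1.25 (0.77 to 1.73). Serpini2, a secreted serpin, had log2 ratios of -0.25 and 1.19 (0.27 to 2.13), and Pdia2, a pancreatic protein disulfide isomerase, -0.05 and 1.13 (0.47 to 1.81). These 3 genes were near PBS at 3 days and higher at 7 days. Dmbt1, a scavenger receptor-type mucosal protein, had 70, 81 and 82 UMIs and log2 ratios of -1.003 (-1.48 to -0.52) at 3 days and 0.83 (0.35 to 1.31) at 7 days. In free RNA, counted per UMI of the 8 enzymes, Dmbt1 went the other way, at 2.19-fold the PBS level at 3 days (1.67 to 2.88) and 0.927-fold at 7 days (0.696 to 1.23), against 0.483-fold and 1.75-fold in acinar cells on the same measure. Gp2 stood in free RNA at 1.69-fold (1.27 to 2.24) and 1.205-fold (0.931 to 1.56), against 0.942-fold and 2.34-fold in acinar cells. The abundant granule proteins Zg16 and Sycn were within 0.20 of PBS on the log2 scale, at -0.03 and -0.20 and at -0.03 and -0.05. Tff2, a trefoil peptide, had -0.15 and -0.41.

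**Figure D5:**
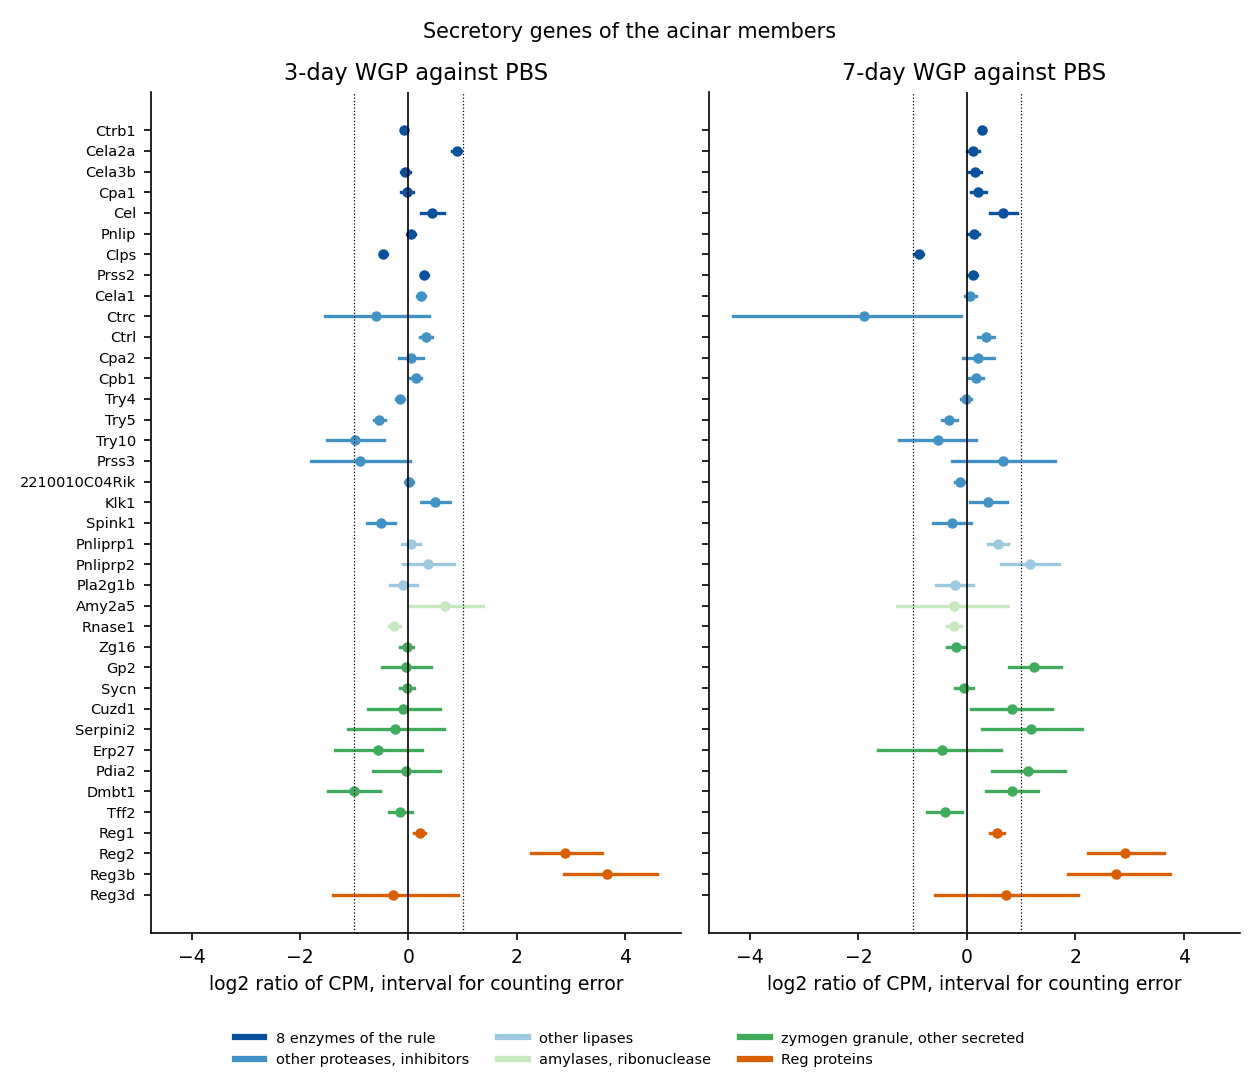
Log2 ratio of summed acinar CPM to PBS for the 38 secretory genes compared at both times, with 95% counting intervals and dotted lines at 2-fold. Reg2 and Reg3b lie beyond the upper line at both times, Gp2, Serpini2, Pdia2 and Pnliprp2 at 7 days, and most enzymes lie near 0.

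The machinery behind secretion was thinly covered. The acinar transcription factor list had 10, 22 and 5 UMIs, with Xbp1, a driver of secretory ER growth, at 5, 10 and 3 and Ptf1a, the DNA-binding subunit of PTF1, at 0, 8 and 2. The secretagogue receptor list had 1, 6 and 2 UMIs and the exocytosis list 3, 13 and 3, too few for a comparison. Genes of translocation into the ER summed to 2402, 2007 and 1785 CPM, with 0 of 5 and 1 of 4 compared genes past 2-fold, the latter lower. ER folding genes summed to 1568, 1289 and 1525 CPM, with 0 of 3 and 0 of 1 past 2-fold. Amino acid and creatine metabolism, led by Gatm, which makes the creatine precursor, summed to 1103, 718 and 1041 CPM.

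Stress genes outside the Reg family gave a smaller difference. In the metallothionein and antioxidant list 2 of 3 compared genes were at least 2-fold higher at 3 days, beside 9.66% of all genes, and 0 of 2 at 7 days. Of the 2, Mt2 passed the limits through its UMIs in 3-day WGP. Mt1 had 24, 147 and 22 UMIs and log2 ratios of 1.40 (0.77 to 2.09) and 0.48 (-0.43 to 1.37), and the 3-day ratio was 1.52 without the cells of over 30 Igkc UMIs. Mt2, the other metallothionein, had 2, 19 and 4 UMIs, a 3-day log2 ratio of 2.03 (-0.02 to 5.18). Nupr1 had 37, 131 and 38 UMIs and log2 ratios of 0.61 (0.07 to 1.18) and 0.64 (-0.05 to 1.33). The lists of unfolded-protein stress (7, 26 and 14 UMIs), immediate early and heat shock genes (13, 64 and 6) and acute phase and chemokine genes (0, 5 and 5) held too few UMIs for any gene to be compared. Interferon response genes had 7, 8 and 5 UMIs, at 171.5, 84.5 and 185.9 CPM against 2131, 2560 and 6073 CPM in the other kept barcodes. Most acinar UMIs were secretory, which lowers the CPM of other genes in this comparison. As CPM of the UMIs outside the secretory lists, the interferon response genes were at 926.2, 511.3 and 1170.7. The other kept barcodes were at 2133.2, 2560.5 and 6074.6 on that scale, so the gap was smaller.

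Several other genes far above PBS at 3 days were nearer to it without the 5 cells rich in Igkc. Igkc itself had a log2 ratio of 3.404, which became -0.51 without those cells, and Ighm, the IgM heavy chain, 2.87 and -0.04. Jchain, the joining chain of secreted IgM and IgA, had 2, 39 and 1 UMIs. Fth1, ferritin heavy chain, had 18, 183 and 20 UMIs and a log2 ratio of 2.13, which became 0.51 without those cells. B2m, the invariant chain of MHC class I, had 1, 21 and 0 UMIs, with a 3-day log2 ratio of 3.18 (0.54 to 8.55). Its ratio became 1.91 without those cells, a value that rests on 1 PBS UMI. Without the 5 cells rich in Igkc, 11 of 182 genes were at least 2-fold higher at 3 days and 10 at least 2-fold lower. Further genes at the ends of the range had few UMIs. Gpx4, a glutathione peroxidase that reduces lipid peroxides, had 12, 11 and 4, and Myl6, a myosin light chain, 10, 10 and 2, with 3-day log2 ratios of -1.34 (-2.66 to -0.03) and -1.21 (-2.64 to 0.21). Rrbp1, a ribosome-binding protein of the ER, had 10, 7 and 15 UMIs and a 7-day log2 ratio of 1.19 (-0.06 to 2.50). Serf2 had 8, 40 and 12 UMIs and log2 ratios of 1.11 and 1.19, which were near or below 0 with each cell weighted the same.

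Mitochondrial genes lay below PBS at both times. Of 9 compared at 3 days, 3 were at least 2-fold lower, beside 6.28% of all genes, with a median log2 ratio of -0.93, and 8 of 8 compared at 7 days, beside 17.4%, with a median of -1.30. In free RNA the mitochondrial share was also highest in PBS, at 18.4%, 10.6% and 10.9%, and its part in the acinar values was not tested. Of the ribosomal protein genes, 3 of 77 (3.90%) were at least 2-fold lower at 3 days and 12 of 69 (17.4%) at 7 days, below and at the shares of all genes, with medians of -0.26 and -0.31. mt-Co3, a subunit of cytochrome c oxidase, had 205, 184 and 27 UMIs and log2 ratios of -1.37 (-1.67 to -1.08) and -2.32 (-2.96 to -1.74). mt-Cytb, cytochrome b, had 140, 148 and 24 UMIs and -1.13 and -1.94. For both genes 1 or a few cells held much of the sum: the richest cell had 35.6%, 59.8% and 40.7% of the mt-Co3 UMIs. Lars2 had 78, 56 and 56 UMIs, with -1.69 at 3 days and 0.12 at 7 days. At 7 days Rpl35, a protein of the large ribosomal subunit, had 20, 53 and 2 UMIs and a log2 ratio of -2.72 (-5.86 to -0.68). Rps21 and Rps7, of the small subunit, were at -1.81 and -1.67. At 3 days Rpl30 and Rpl26, of the large subunit, were at -1.13 each. Rpl34 had 21, 48 and 0 UMIs, so with 7-day WGP set at a limit of 3 counts its level was at least 4.61-fold lower than in PBS. The median acinar cell of 7-day WGP was the shallowest of the 3 libraries. Among cells of at least 1000 UMIs the log2 ratios of mt-Co3 were -1.04 and -2.27, and among cells of at most 15% mitochondrial UMIs -1.97 and -1.66. Without the 5 cells of over 30 Igkc UMIs, the 3-day log2 ratios were -0.93 for mt-Co3 and -0.65 for mt-Cytb, both under 2-fold.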

How the data were processed

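Live CD45+ pancreas cells of 3 libraries, PBS, 3-day WGP and 7-day WGP, were prepared with a 10x 3' v3.1 kit. The deposited matrices held UMI counts per gene and barcode for 31053 genes and 6794880 barcodes, unfiltered and not normalised. The submitters' processing notes named Cell Ranger 3.1.0, mm10 and Seurat.

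Counts were used as deposited, and barcodes were filtered as stated in the report. UMIs were summed over the acinar cells of each library, divided by that sum (CPM) and compared as ratios without a pseudocount. A UMI tags 1 molecule at its 3′ end, so counts were not scaled for transcript length. Intervals (exact Poisson, exact Clopper-Pearson and exact conditional binomial, and a delta-method interval for ratios of cell shares, 95%) cover counting error only. A count of 0 was set at a limit of 3 counts. With 1 library per group no test was possible. No doublet caller was run, as the rule fixed the cells, and leaving out cells above the 95th percentile of UMIs of their library removed none.

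Genes named were those of the rule, the 3 richest genes of each list, the 8 highest and 8 lowest ratios of each comparison among genes seen in at least 25% of cells, and 10 genes outside the lists. 1 gene that met this rule is not reported here. Other genes named were chosen after their values were seen. Members and gene lists were chosen with earlier results of these data known. Thinning drew UMIs without replacement. The calculations were tested on simulated data. Promoters came from RefSeq GRCm38.p6, and shared 3′ ends were found by 31-base matches over the last 500 bases of transcripts. Python 3.11.15, numpy 2.4.6, scipy 1.17.1, pandas 2.3.3 and matplotlib 3.10.9 were used. Alternatives varied the limits on UMIs, mitochondrial and enzyme shares, the scaling and the weighting of cells.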

Additional observations from a re-analysis of the deposited data

Results flagged for a closer look

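Reg transcripts and those of Ctrb1, Cela2a, Clps, Gp2, Dmbt1 and Pnliprp2 were also counted outside the acinar cells, in barcodes of 200 to under 500 UMIs that otherwise met the rule (34, 25 and 16 by library) and in free RNA from barcodes of at most 100 UMIs. Levels there are UMIs per 1000 UMIs of the 8 enzymes. A value is listed where its 95% counting interval lay above that of PBS, as a signal in data that the comparisons of acinar cells did not use. Values below PBS are not listed here, apart from Clps in free RNA.

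In free RNA, Reg2 stood at 6.67 in 3-day WGP and 5.83 in 7-day WGP against 1.74 in PBS. Reg3b stood at 5.26 in 3-day WGP against 1.17 in PBS. In 7-day WGP it stood at 1.90, with an interval of 1.48 to 2.40 that overlapped that of PBS (0.847 to 1.58). Reg3g stood at 1.77 in 3-day WGP against 0.0272 in PBS, where it rested on 1 UMI, so the ratio of 65.1 has an interval of 10.9 to 2644. Reg1 stood at 55.7 in 3-day WGP and 46.1 in 7-day WGP against 41.5 in PBS. Of the other genes, Dmbt1 stood at 6.198 and Gp2 at 5.104 in 3-day WGP against 2.83 and 3.02 in PBS, Pnliprp2 at 4.47 and Cela2a at 111.5 in 7-day WGP against 3.08 and 86.4, and Ctrb1 at 293.7 and 278.8 against 263.1. Cela2a and Ctrb1 are themselves among the 8 enzymes. So is Clps, which stood lower in free RNA, at 153.5 in 3-day WGP and 108.6 in 7-day WGP against 203.7 in PBS. A lower Clps count makes the denominator smaller and raises the other values on this measure. Whether the smaller differences, such as those of Reg1 and Ctrb1 at 7 days, would remain without Clps in the denominator was not tested.

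In the barcodes of 200 to under 500 UMIs, Reg2 stood at 7.39 in 3-day WGP against 0.546 in PBS, Reg3b at 5.34 against 0.819, and Reg1 at 53.8 against 34.4. For these genes the 7-day WGP intervals overlapped those of PBS. The PBS values of Reg2 and Reg3b rested on 2 and 3 UMIs. These barcodes and the free RNA come from the same 3 libraries as the acinar cells and are no further replicate of a group.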

How the results depend on the processing

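No paired analysis was possible because each group was 1 library, and for the same reason no replicate could be left out. The leave-outs of the deepest cell, of the cells richest in a Reg gene and of cells with Igkc UMIs, the limit of 60% secretory UMIs and the use of barcodes of 200 to under 500 UMIs were chosen after seeing the data. Limits of 40% ribosomal UMIs and of the 95th percentile of UMIs removed no acinar cell. The 7-day WGP share was 0.144% with a minimum of 1000 UMIs and the PBS share 0.657% with a minimum of 250. An enzyme share of at least 50% left shares of 0, 0.0391 and 0%, too few cells for a gene comparison. The leukocyte list was at 367 CPM in PBS with an enzyme share of 5%, 444 CPM in 3-day WGP with 50%, 45.9 CPM in 3-day WGP without the Igkc-rich cells, 0 in 7-day WGP without the deepest cell, and 406, 762 and 835 CPM in barcodes of 200 to under 500 UMIs. In free RNA from barcodes of at most 50 UMIs it was at 4857, 5694 and 6579 CPM. The 3-day share with a Ptprc UMI was 0 with a 50% enzyme share, when thinned, or with Ptprc added to the excluded genes.

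Genes at least 2-fold higher at 3 days numbered 20, but 32 as a mean over cells, 42 with at least 10 UMIs and no CPM limit, 3 in barcodes of 200 to under 500 UMIs and 11 without the Igkc-rich cells. Those lower at 3 days numbered 13, but 26 with an enzyme share of 5%, 4 scaled to UMIs outside the secretory lists, 37 with at least 10 UMIs and 7 with 50 CPM added. At 7 days, 8 were higher, but 14 with at least 10 UMIs and 4 in the small barcodes, and 26 were lower, but 15 with a minimum of 1000 UMIs, 16 with at most 15% mitochondrial UMIs, 16 with at least 60% secretory UMIs, 40 with at least 10 UMIs and 8 in the small barcodes. The 7-day Reg median was 2.81 with a minimum of 1000 UMIs.

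As a mean over cells the log2 ratio of Serf2 turned from 1.11 to -0.0346 at 3 days and from 1.19 to -0.73 at 7 days. Without the Igkc-rich cells the 3-day ratios of Amy2a2, Igkc and Ighm turned to -0.0947, -0.51 and -0.0423. In the small barcodes those of Rpl30 and Rpl26 turned to 0.00132 and 1.001, and that of Rpl34 at 7 days to 0.30. The cause was not tested. The 54 cells and 27476 UMIs outside the secretory lists limit every gene that is not secretory. Of the other values, 289 summary values and 2064 single-gene values moved by less than their counting error or the limits set for counts, and 196 single-gene values moved by more.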
